A study of Mus musculus with 12 samples.

Results

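The 33 genes described here belong to the unfolded protein response of the endoplasmic reticulum (ER) and to the amino acid response, and they were picked by symbol out of a table of 54532 mouse genes. They comprise 13 chaperones and folding enzymes, 4 genes of the stress sensors and *Xbp1*, 5 genes of ER-associated degradation (ERAD), and 11 genes of the ATF4 branch. Expression was measured by RNA-seq in the liver of 12 male C57BL/6J mice that were fed 4 diets for 26 weeks from 5 weeks of age, with 3 mice per diet. The ND group ate normal chow, and all other groups ate 1 high-fat diet. That diet held no supplement in the control group, HYA at 1% in the HYA group, and LA at 1% in the LA group. LA is linoleic acid, and HYA is a gut microbial product of LA that has a hydroxyl group where LA has a double bond. The comparison of control with ND-fed mice sets the high-fat diet against normal chow. Those of HYA- and LA-treated with control mice set each supplement against the high-fat diet alone. That of HYA- with LA-treated mice sets the metabolite against its parent.

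Proteins that enter the ER are folded by chaperones such as BiP, and unfolded proteins in its lumen are sensed by IRE1, PERK and ATF6. IRE1 splices *Xbp1* mRNA, and spliced XBP1 together with cleaved ATF6 raises the transcription of chaperone and ERAD genes. PERK instead phosphorylates the translation factor eIF2, as GCN2 does when amino acids run short, and the phosphorylation favors translation of ATF4, which acts on genes of amino acid synthesis and transport, on *Ddit3*, and on *Trib3*. Hepatocytes secrete most plasma proteins and therefore hold much ER.

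Levels are in FPKM, which divides the fragments of a gene by its length and by the size of the library. Between 17169064 and 25220880 fragments fell on genes in each mouse, and 3 fragments on a gene of 2 kilobases gave 0.0607 to 0.0944 FPKM depending on the mouse. The test was run on the 11083 genes whose average reached 1 FPKM, among them 29 of the 33 members. The other 4 members, *Asns*, *Psat1*, *Phgdh* and *Nupr1*, all belong to the ATF4 branch. A gene is called higher or lower when its Benjamini-Hochberg adjusted p-value over all tested genes is under 0.05, and log2 fold changes are on the scale of log2(FPKM + 1), which understates the change of genes with low values. The tissue label was borne out by the hepatocyte markers, of which all 10 were expressed, with *Alb*, the gene of albumin, at a mean of 23930 FPKM.

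Promoter sequences, taken from RefSeq on build GRCm38.p6 and covering 250 bases before to 50 bases after the start site, were found for 30 of the 33 members. They were searched on both strands for the ER stress response element (ERSE; CCAAT, 9 bases of any kind, then CCACG), which ATF6 binds together with NF-Y, for ERSE-II (ATTGG, 1 base, then CCACG), and for the ATF4-type element TGATGNAA. ERSE was present in 39 of 32851 promoters (0.119%), among them those of 7 of 11 chaperone genes and 2 of 5 ERAD genes, and in none of the 3 sensor and 11 ATF4 branch promoters. ERSE-II was present in 12 promoters (0.0365%), and *Herpud1* was the single member among them. TGATGNAA was present in 1304 promoters (3.97%), and in those of 5 of 11 ATF4 branch genes and of *Herpud1*. *Manf*, *Hyou1* and *Atf6* had no entry. A match describes the letters alone. Matches upstream of the start are shown with the element in capitals, each read 5′ to 3′ on the strand given.
*Hspa5*, chr2:34772020-34772048, plus strand, ERSE: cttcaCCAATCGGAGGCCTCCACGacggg
*Hsp90b1*, chr10:86705633-86705661, minus strand, ERSE: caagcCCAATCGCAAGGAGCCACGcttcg
*Hsp90b1*, chr10:86705528-86705556, plus strand, ERSE: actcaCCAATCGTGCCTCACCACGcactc
*Pdia6*, chr12:17266486-17266514, plus strand, ERSE: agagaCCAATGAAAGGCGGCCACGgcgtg
*Dnajc3*, chr14:118937822-118937850, plus strand, ERSE: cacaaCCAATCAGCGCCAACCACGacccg
*Creld2*, chr15:88819515-88819543, minus strand, ERSE: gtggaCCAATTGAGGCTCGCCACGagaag
*Calr*, chr8:84847070-84847098, plus strand, ERSE: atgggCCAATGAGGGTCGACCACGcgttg
*Canx*, chr11:50325795-50325823, minus strand, ERSE: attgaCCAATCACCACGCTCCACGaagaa
*Syvn1*, chr19:6046527-6046555, plus strand, ERSE: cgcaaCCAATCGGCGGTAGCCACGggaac
*Derl3*, chr10:75893237-75893265, minus strand, ERSE: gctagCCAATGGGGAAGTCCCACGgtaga
*Herpud1*, chr8:94386368-94386396, plus strand, ERSE-II: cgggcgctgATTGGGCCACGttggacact
*Herpud1*, chr8:94386307-94386334, minus strand, ATF4-type: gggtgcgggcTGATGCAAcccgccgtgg
*Atf3*, chr1:191183426-191183453, plus strand, ATF4-type: gcggacttggTGATGCAAgtgcgagaag
*Asns*, chr6:7693215-7693242, minus strand, ATF4-type: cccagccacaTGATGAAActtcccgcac
*Chac1*, chr2:119351039-119351066, minus strand, ATF4-type: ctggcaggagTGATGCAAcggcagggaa
*Nupr1*, chr7:126625563-126625590, plus strand, ATF4-type: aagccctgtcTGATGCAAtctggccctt

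In control compared with ND-fed mice, most genes of the ER side had negative log2 fold changes, of which a minority was called, and genes of the ATF4 branch were divided. Among the 22 chaperone, sensor and ERAD genes, 7 were lower and 1 was higher, but after every mouse was rescaled to the same total (TPM) 1 was lower and 2 were higher. Of their log2 fold changes 20 were negative as FPKM and 16 as TPM, with medians of −0.45 and −0.22. Among the 7 tested genes of the ATF4 branch, 2 were higher and 1 was lower (2 and 0 as TPM), with medians of 0.09 and 0.31. Of all 29 tested members, 3 were higher and 8 were lower, beside 16.2% higher and 19.1% lower of all tested genes and a median of −0.04 for all genes. Only *Atf3* among the members also passed a log2 fold change of 1 in either direction, which 2.25% of tested genes passed upward and 1.63% downward.

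The size of these differences rested on the scale. Rescaling each mouse to TPM moved the median of all genes from −0.04 to 0.17, so that the share of higher genes among those called went from 45.9% to 83.8%, with 34.2% of tested genes higher and 6.6% lower. On that scale 1 member was lower, *Ern1*, and 4 were higher, *Atf6*, *Eif2ak3*, *Atf3* and *Sesn2*. Relative to the median of all genes, the ER side lay at −0.41 as FPKM and −0.38 as TPM, and the ATF4 branch at 0.13 and 0.15. The summed FPKM of the mice, which this rescaling makes equal, was 407652 to 429286 in ND-fed and 342146 to 368132 in control mice.

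**Figure D1:**
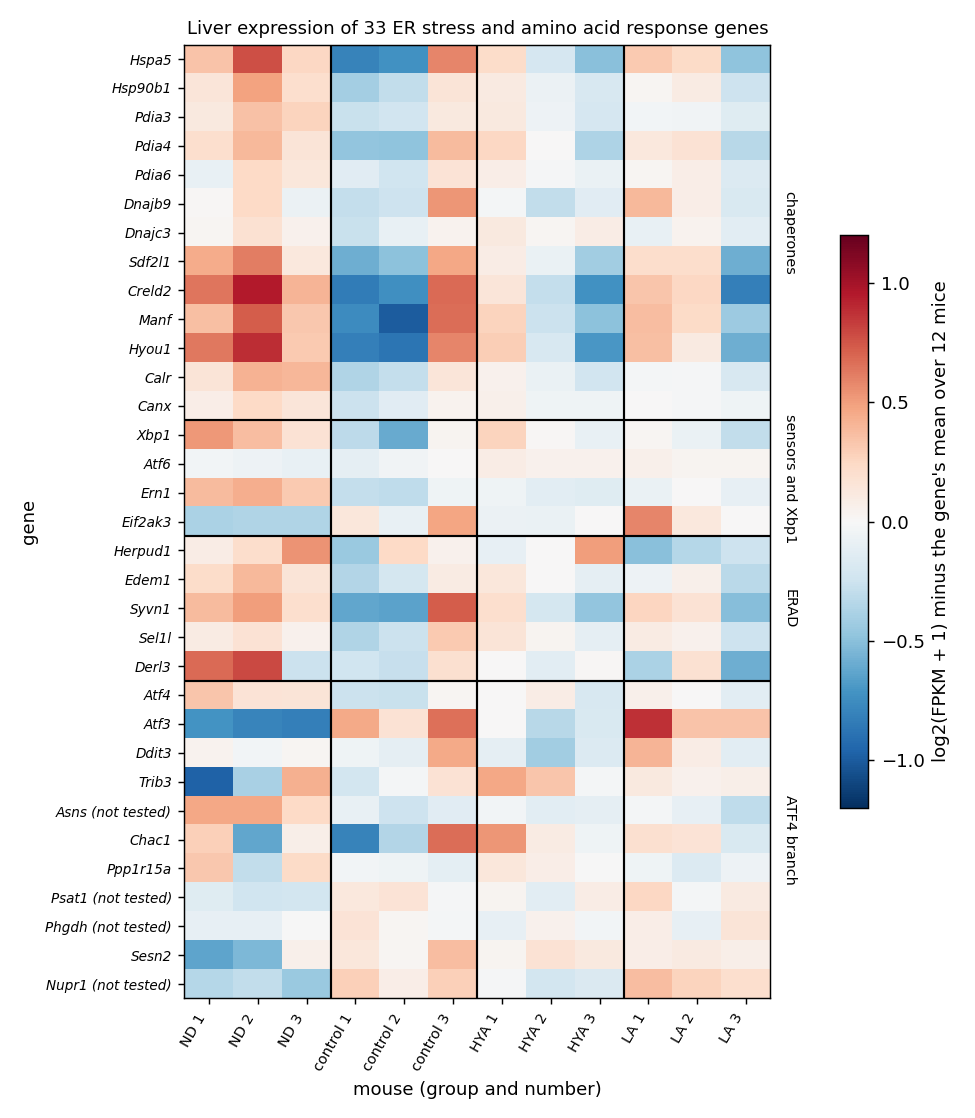
Expression of the 33 members (lines) in the 12 mice (columns), as log2(FPKM + 1) minus the mean of each gene over the 12 mice, with the 4 members that were not tested marked. Chaperone genes were low in control 1 and control 2 and high in control 3, and *Atf3* was low in all 3 ND-fed mice.

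*Hspa5* encodes BiP, the main ER chaperone of the HSP70 family and the standard readout of ER stress, and its promoter holds the ERSE shown first above. Its level was 216, 291 and 202 FPKM in ND-fed mice and 97.4, 102 and 256 FPKM in control mice. Control 3 lay within the ND range, whereas control 1 and control 2 were far below it. The log2 fold change of −0.77 ± 0.36 (SE, n = 3 per group) did not pass the test (limma, Benjamini-Hochberg adjusted p = 0.117). HYA-treated mice had 198, 148 and 120 FPKM and LA-treated mice 212, 200 and 122 FPKM, so that both groups overlapped the control mice.

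Calreticulin and calnexin are the lectin chaperones that retain unfolded glycoproteins in the ER. *Calr* was at 241, 289 and 285 FPKM in ND-fed and 168, 176 and 239 FPKM in control mice, without overlap, and fell by 0.49 ± 0.13 on the log2 scale (SE, n = 3 per group; limma, Benjamini-Hochberg adjusted p = 0.014). *Canx* was at 81.4, 91.1 and 84.9 FPKM in ND-fed and 64.3, 69.7 and 79.2 FPKM in control mice, also without overlap, with a log2 fold change of −0.27 ± 0.08 (limma, Benjamini-Hochberg adjusted p = 0.0167). In both genes control 3 was the control mouse nearest to the ND range. *Pdia3*, the disulfide isomerase that works with both lectins, was at 130, 152 and 143 FPKM in ND-fed and 99.0, 102 and 130 FPKM in control mice. Control 3 reached the lowest ND-fed mouse, and the log2 fold change was −0.37 ± 0.11 (limma, Benjamini-Hochberg adjusted p = 0.0259).

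*Hsp90b1*, the ER form of HSP90, was the last of the 4 called chaperones, at −0.46 ± 0.15 (limma, Benjamini-Hochberg adjusted p = 0.0384). As TPM none of the 4 passed, with log2 fold changes of −0.26 for *Calr*, −0.04 for *Canx*, −0.13 for *Pdia3* and −0.22 for *Hsp90b1* (limma, Benjamini-Hochberg adjusted p = 0.124, 0.699, 0.361 and 0.257). Of 22 alternatives, 18 kept the call of *Calr*, 17 that of *Canx*, 14 that of *Pdia3* and 12 that of *Hsp90b1*, and all 4 calls were lost without ND 2 and without control 1. That of *Canx* was also lost with only the 2 groups compared, those of *Pdia3* and *Hsp90b1* were lost there and without ND 3, without control 2 and without a filter, and that of *Hsp90b1* with the replicate block (adjusted p = 0.0614 by limma and Benjamini-Hochberg) and without HYA 2. The other 8 chaperones besides *Hspa5* did not pass, although all 13 log2 fold changes were negative as FPKM and 10 of 13 as TPM. The most negative values were those of *Hyou1*, the large HSP70 relative of the ER, at −0.98, of *Creld2*, a folding factor with EGF-like repeats, at −0.97, and of *Manf*, a secreted ER stress protein, at −0.83. *Sdf2l1*, *Pdia4*, *Dnajc3*, *Pdia6* and *Dnajb9* lay between −0.60 and −0.06. Standard errors were 0.40 for *Hyou1*, 0.42 for *Creld2* and 0.39 for *Manf*, beside 0.08 to 0.15 for the 4 called chaperones, and those of *Dnajc3* and *Pdia6* were 0.08 and 0.12. Without control 3, *Hyou1* and *Creld2* at −1.46, *Manf* at −1.35, *Sdf2l1* at −0.93, *Pdia4* at −0.73 and *Dnajc3* at −0.26 were called lower. Control 3 was the highest control mouse for all 13 chaperone genes, so leaving it out had to lower their control means. The calls of that fit are therefore only a description of the remaining mice. *Pdia6* at −0.29 and *Dnajb9* at −0.32 were not called in that fit. *Manf*, at 23.7 FPKM on average, overlaps *Dcaf1* on the opposite strand (4.78 FPKM) and *Rbm15b* on its own (3.3 FPKM), which leaves its values uncertain.

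The sensors moved in different directions. *Ern1*, which encodes IRE1, was at 13.7, 14.3 and 13.1 FPKM in ND-fed and 8.25, 8.14 and 9.90 FPKM in control mice. The groups were well apart, with a log2 fold change of −0.59 ± 0.07 (SE, n = 3 per group; limma, Benjamini-Hochberg adjusted p = 0.000138), and it was lower under every alternative that kept the threshold on adjusted p alone. *Xbp1* was at 82.4, 74.4 and 64.6 FPKM in ND-fed and 45.7, 37.2 and 58.6 FPKM in control mice. All 3 control mice were below the ND range, and the log2 fold change was −0.65 ± 0.16 (limma, Benjamini-Hochberg adjusted p = 0.00909), but as TPM it was −0.42 (limma, Benjamini-Hochberg adjusted p = 0.0707). The spliced and unspliced forms of *Xbp1* mRNA cannot be told apart in values per gene.

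*Eif2ak3*, which encodes PERK and so stands at the head of the ATF4 branch, was the single member of the ER side that was higher. It was at 3.29, 3.32 and 3.33 FPKM in ND-fed and 5.13, 4.24 and 6.73 FPKM in control mice, without overlap. The log2 fold change was 0.54 ± 0.15 (limma, Benjamini-Hochberg adjusted p = 0.0185), and without control 3 it was 0.39 (adjusted p = 0.0619). *Atf6*, the sensor that itself becomes a transcription factor, was nearly level at a mean of 12.2 FPKM in ND-fed and 12.3 FPKM in control mice (log2 fold change of 0.01 ± 0.05), and its log2 fold change as TPM was 0.24 (limma, Benjamini-Hochberg adjusted p = 0.00393).

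ERAD returns misfolded proteins to the cytosol for degradation. *Edem1*, which recognizes trimmed glycans on such proteins, was lower at −0.41 ± 0.13 (limma, Benjamini-Hochberg adjusted p = 0.0284) with no overlap between the groups, and was not called as TPM (−0.18), nor without ND 1, ND 2, control 1 or control 2, without a filter, or with only the 2 groups compared. The other 4 ERAD genes did not pass. *Syvn1*, the ubiquitin ligase of the ERAD complex, had a log2 fold change of −0.54 and its partner *Sel1l* one of −0.21, *Derl3* −0.51, and *Herpud1*, a scaffold of the complex, −0.33. Without control 3, *Syvn1* at −0.99 (limma, Benjamini-Hochberg adjusted p = 0.0102) and *Sel1l* at −0.42 (adjusted p = 0.0156) were called lower. For both genes control 3 was the highest control mouse, so these calls are also only a description of the remaining mice. *Herpud1* was the most abundant ERAD gene, with a mean of 145 FPKM in ND-fed and 116 FPKM in control mice. *Derl3* was near the limit of the filter, at 0.67 to 2.46 FPKM in ND-fed and 0.658 to 1.28 FPKM in control mice, and was called lower without ND 3. It averaged 1.78 FPKM under ND and under 1 FPKM in each high-fat group, so it passed the filter through the ND group. Its call and its fold changes against ND are therefore only a description of these mice. *Syvn1* overlaps *Mrpl49* on the opposite strand (17.9 FPKM on average, beside 19.9 FPKM for *Syvn1*), and since the strand setting of the counting is not given in the sources used here, the values of both are uncertain.

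**Figure D2:**
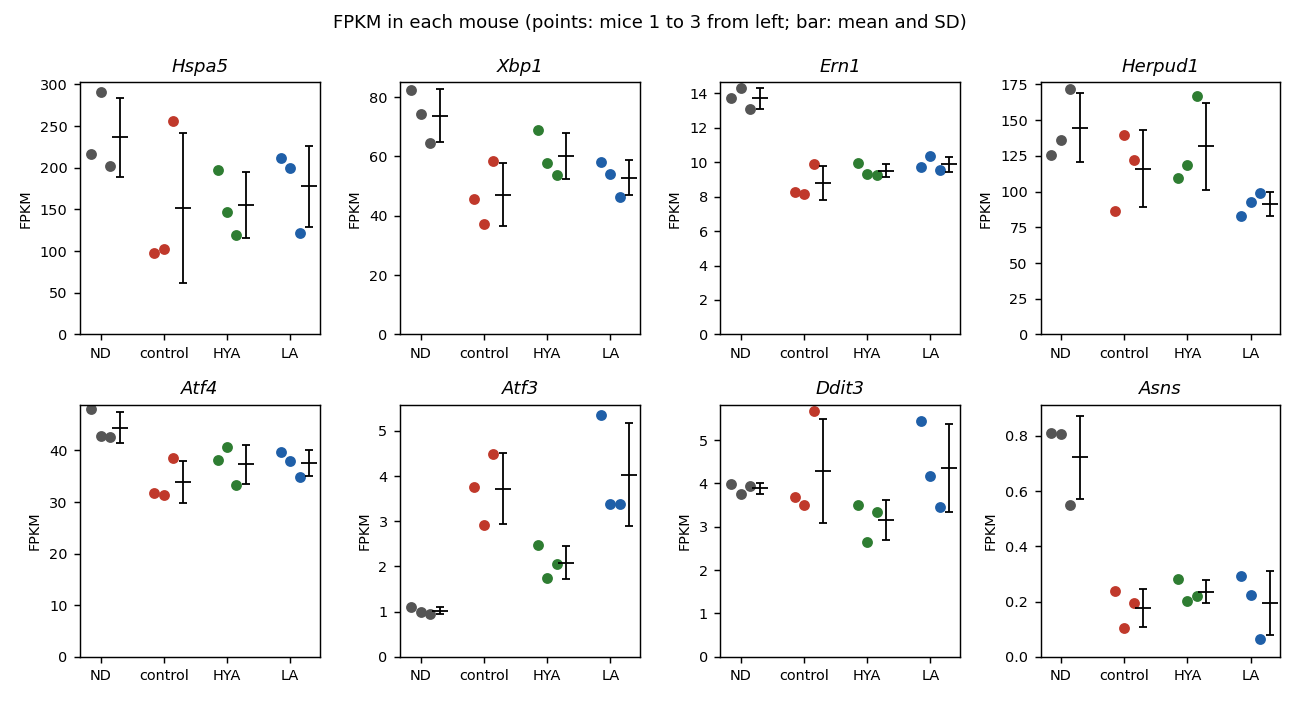
FPKM of 8 members in each mouse (points), with the mean and SD of each group of 3 mice beside them (bars). *Ern1* and *Asns* of the 3 ND-fed mice lay above those of all 9 mice on a high-fat diet, whereas *Hspa5* of control mice ranged from 97.4 to 256 FPKM.

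*Atf4* itself was lower in control mice. Its level was 48.0, 42.8 and 42.5 FPKM in ND-fed and 31.7, 31.3 and 38.6 FPKM in control mice, and the groups did not overlap. The log2 fold change was −0.39 ± 0.10 (SE, n = 3 per group; limma, Benjamini-Hochberg adjusted p = 0.0111) and −0.16 as TPM (limma, Benjamini-Hochberg adjusted p = 0.254). ATF4 is regulated mainly through translation, which was not measured.

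*Atf3*, a stress-induced transcription factor acting downstream of ATF4 and of other pathways, had the largest difference of all tested members with all mice in the fit, whereas without control 3 it was at 1.10 and *Creld2* and *Hyou1* were at −1.46. Its level was 1.11, 0.994 and 0.956 FPKM in ND-fed and 3.76, 2.91 and 4.48 FPKM in control mice. Every control mouse was well above every ND-fed mouse, and the log2 fold change was 1.21 ± 0.16 (limma, Benjamini-Hochberg adjusted p = 0.000242). *Sesn2*, whose product senses leucine and restrains mTORC1, was at 2.16, 2.37 and 4.12 FPKM in ND-fed and 4.40, 3.97 and 5.35 FPKM in control mice. The third ND-fed mouse reached the control range, and the log2 fold change was 0.55 ± 0.15 (limma, Benjamini-Hochberg adjusted p = 0.0187). This call was lost without ND 1 (adjusted p = 0.0683 by limma and Benjamini-Hochberg), ND 2 (0.0718) or control 3 (0.0647), and with only the 2 groups compared (0.0777).

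The pro-apoptotic factor CHOP is encoded by *Ddit3*, which was at 3.99, 3.75 and 3.93 FPKM in ND-fed and 3.69, 3.498 and 5.66 FPKM in control mice. The groups overlapped, the log2 fold change of 0.09 ± 0.16 did not pass (limma, Benjamini-Hochberg adjusted p = 0.704), and its sign turned to −0.09 without control 3. *Ddit3* also overlaps *Mars* on the opposite strand (20 FPKM on average, beside 3.92 FPKM for *Ddit3*), so its values are uncertain for the reason given for *Syvn1*. *Trib3*, a pseudokinase that restrains AKT, was at 1.37, 2.55 and 5.24 FPKM in ND-fed and 2.98, 3.57 and 4.22 FPKM in control mice. The ND-fed mice alone spanned the whole control range, and without ND 3 *Trib3* was called higher. *Ppp1r15a*, which encodes the eIF2 phosphatase subunit GADD34, was at 5.29, 3.09 and 4.89 FPKM in ND-fed and 3.91, 3.82 and 3.63 FPKM in control mice, with the control mice inside the ND range. Without ND 2 it was called lower. *Chac1*, a glutathione-degrading enzyme, ranged from 0.769 to 2.33 FPKM in ND-fed and from 0.568 to 3.33 FPKM in control mice.

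The 4 members below the filter were examined as fragments. *Asns*, which encodes asparagine synthetase and is a classic ATF4 target, had 39, 35 and 27 fragments in ND-fed mice and 14, 6 and 11 in control mice, 15, 10 and 15 in HYA-treated mice, and 17, 13 and 4 in LA-treated mice. All 9 mice on a high-fat diet were below the lowest ND-fed mouse. *Nupr1*, a small stress-induced chromatin protein, went the other way, with 18, 18 and 14 fragments in ND-fed, 63, 47 and 61 in control, 37, 24 and 36 in HYA-treated, and 70, 61 and 59 in LA-treated mice. Its HYA-treated mice lay between the ND-fed mice and the other 2 groups without overlap. *Psat1* of serine synthesis had 12, 6 and 8 fragments in ND-fed, 37, 40 and 24 in control, 26, 14 and 39 in HYA-treated, and 48, 24 and 37 in LA-treated mice. In a fit of recovered fragments that was added after the data were seen and took in 14353 genes, log2 fold changes were −2.02 ± 0.44 for *Asns* (limma voom, Benjamini-Hochberg adjusted p = 0.00368), 1.44 ± 0.26 for *Nupr1* (adjusted p = 0.00122) and 1.61 ± 0.44 for *Psat1* (adjusted p = 0.0131). Against ND, that fit also called all 3 in LA-treated mice, *Asns* at −2.07, *Nupr1* at 1.57 and *Psat1* at 1.66 (limma voom, Benjamini-Hochberg adjusted p = 0.00364, 0.000766 and 0.0121), and *Asns* in HYA-treated mice at −1.57 (adjusted p = 0.0221). *Psat1*, at 12, 6 and 8 fragments in ND-fed mice, met the limit of 10 fragments on average through the high-fat groups. Its calls against ND are therefore only a description of these mice. *Nupr1* of HYA-treated mice was at −0.78 ± 0.22 against control (limma voom, Benjamini-Hochberg adjusted p = 0.072) and −0.91 ± 0.22 against LA-treated mice (adjusted p = 0.0571), and neither passed. *Phgdh*, the first enzyme of serine synthesis, had at most 11 fragments in any mouse and was too low for that fit.

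**Figure D3:**
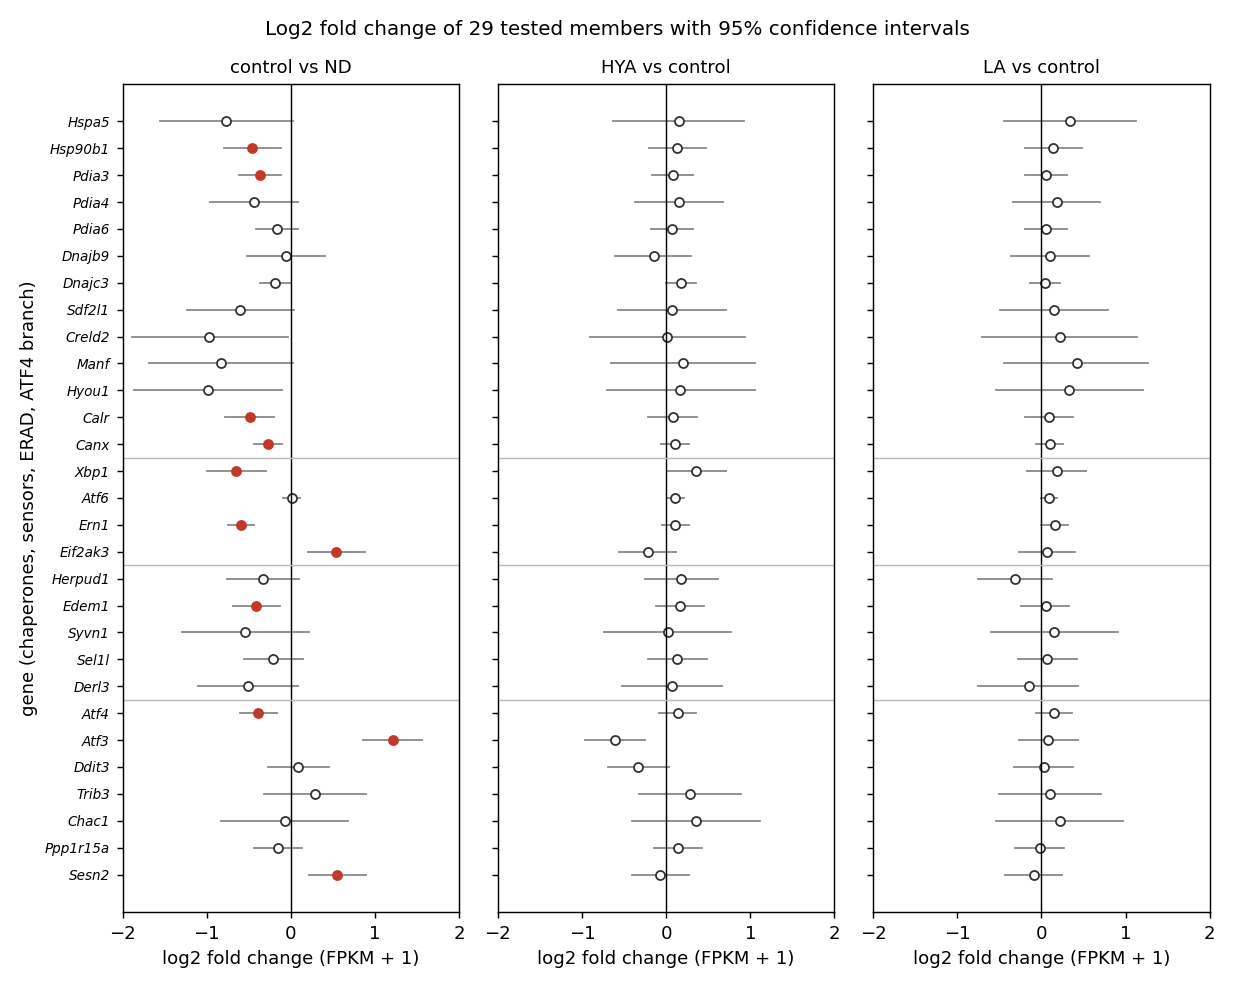
Log2 fold changes (points; red where called) with 95% confidence intervals (lines) of the 29 tested members in control compared with ND-fed, HYA-treated compared with control, and LA-treated compared with control mice. Called members were 11 in the first comparison and 0 in the other 2.

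Among other ER genes, more were called lower than higher as FPKM, beside 16.2% higher and 19.1% lower of all tested genes. As TPM, a scale that moved all genes upward (34.2% higher and 6.6% lower), more of these ER genes were higher than lower. Relative to the median of all genes, their medians hardly differed between FPKM and TPM, at −0.09 and −0.07 for folding, −0.19 and −0.18 for entry into the ER, and −0.14 and −0.13 for ERAD. Of 31 other ER folding genes, 13 were lower and 3 higher in control mice than under ND (5 and 11 as TPM), and the median log2 fold change went from −0.14 as FPKM to 0.09 as TPM. The lower ones as FPKM included *Ganab*, the glucosidase II subunit that trims glycans for calnexin, at −0.57, and the isomerase genes *Pdia5* at −0.76 and *Ppib* at −0.41, as well as the peroxiredoxin gene *Prdx4* at −0.47. Of 29 genes for entry into the ER, 12 were lower and 0 higher (1 and 3 as TPM), with medians of −0.23 and −0.01, and *Sec63* of the translocon was at −0.45 and *Srp72* of the signal recognition particle at −0.35 as FPKM. Of 24 other ERAD genes, 9 were lower and 1 was higher (2 and 4 as TPM), with medians of −0.18 and 0.04, and *Selenos* and the VCP cofactor gene *Nploc4* were at −0.68 and −0.29 as FPKM.

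Genes around ATF4 were called in both directions. Of 21 other ATF4 targets that were tested, 7 were higher and 4 were lower, beside 16.2% and 19.1% of all tested genes, with a median of 0.20, and as TPM 13 were higher and 3 were lower, beside 34.2% and 6.6%. *Fgf21*, a liver hormone induced by ATF4 and by PPARα, was at 0.599, 1.46 and 0.644 FPKM in ND-fed and 9.54, 8.07 and 18.3 FPKM in control mice. Its values did not overlap and its log2 fold change was 2.72 ± 0.28 (limma, Benjamini-Hochberg adjusted p = 4.82e-05). The alanine aminotransferase gene *Gpt2* was higher by 0.85 and the lipoprotein receptor gene *Vldlr* by 0.69, whereas *Cth*, the cystathionine lyase gene of cysteine synthesis, was at 147, 167 and 157 FPKM in ND-fed and 46.8, 68.1 and 66.2 FPKM in control mice. *Cth* was lower by −1.38 ± 0.15 on the log2 scale (limma, Benjamini-Hochberg adjusted p = 7.65e-05). *Fgf21* and *Vldlr*, both among the 7 higher, averaged 0.90 and 0.52 FPKM under ND and passed the filter through the high-fat groups. Their calls are therefore only a description of these mice.

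The aminoacyl-tRNA synthetase genes, many of which ATF4 can induce, did not follow *Atf3*. Of 20 cytosolic synthetase genes, 10 were lower and 0 were higher (2 and 2 as TPM), led by *Aars* at −0.61 and *Eprs* at −0.55 as FPKM. Of 15 genes that control eIF2, 6 were lower and 1 was higher as FPKM but 0 were lower and 5 higher as TPM, and the heme-regulated kinase gene *Eif2ak1* and the GCN2 activator gene *Gcn1l1* were at −0.33 and −0.36 as FPKM. Of 17 other regulators of the unfolded protein response, 3 were higher and 1 was lower (7 and 0 as TPM), with *Nfe2l1* at 0.46 and *Nfyb*, a subunit of NF-Y, at −0.33. Of all tested genes 16.2% were higher and 19.1% lower (34.2% and 6.6% as TPM), so the higher counts of the eIF2 list as TPM and of these regulators as FPKM were near the share of all genes. Among these regulators, *Creb3l1* averaged 0.58 FPKM under ND and passed the filter through the high-fat groups.

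Of 14 cytosolic heat shock genes, 2 were higher, *Hspb1* at 1.40 and *Hspa4l* at 0.33, and 0 were lower, beside 16.2% and 19.1% of all tested genes, and 9 of the 14 had negative log2 fold changes, with a median of −0.01. Of 16 immediate early genes, 6 were higher and 0 were lower, including *Jun* at 1.41, *Klf6* at 1.44 and *Btg2* at 1.46, with a median of 0.42. In that list *Fos*, *Ier3* and *Gadd45b* averaged 0.58, 0.60 and 0.97 FPKM under ND and passed the filter through the high-fat groups. *Atf3* is itself induced early after many stimuli. As TPM, 3 of the heat shock and 8 of the immediate early genes were higher, and 0 were lower in either list, beside 34.2% and 6.6% of all tested genes.

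**Figure D4:**
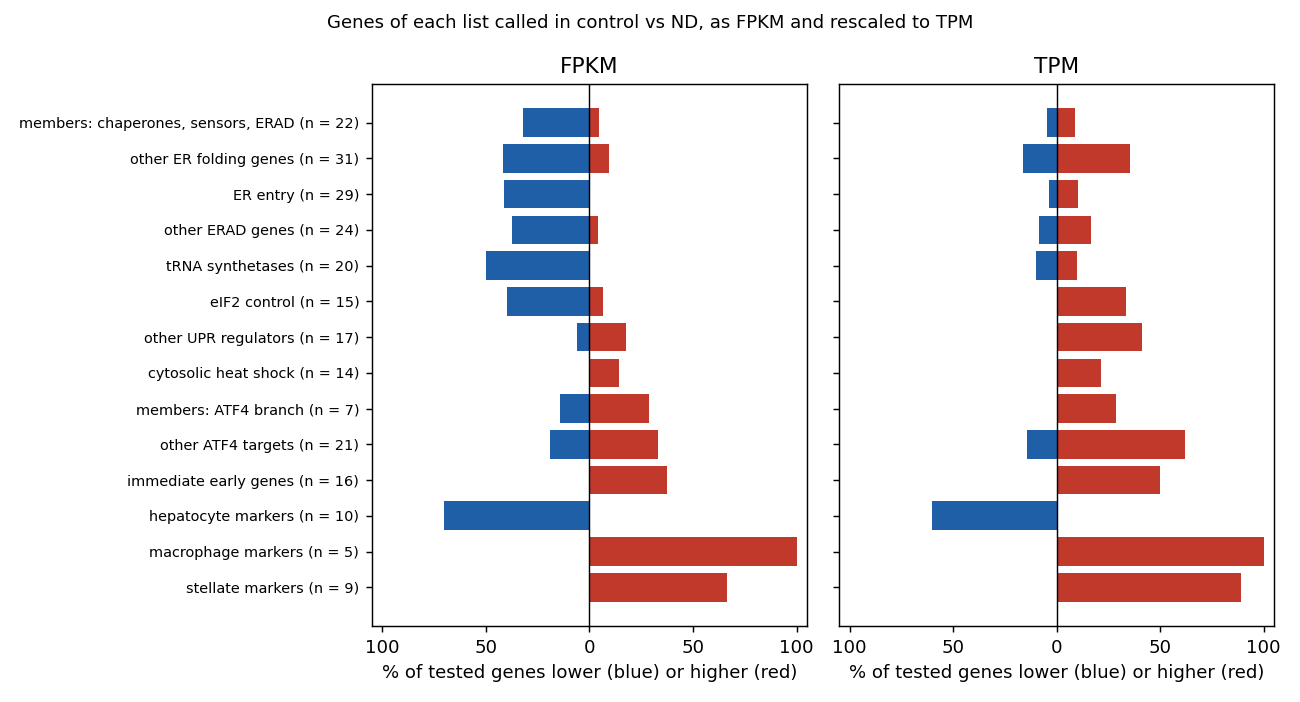
Share of the tested genes of each list that was lower (blue) or higher (red) in control than in ND-fed mice, as FPKM (left) and after rescaling to TPM (right), with the number of tested genes in parentheses. Among the members of the ER side 7 of 22 were lower as FPKM and 1 of 22 as TPM.

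Markers of cell types moved with the same comparison, and fewer cells of a type cannot be told apart from less RNA per cell in whole liver. The marker counts below stand beside 16.2% higher and 19.1% lower of all tested genes (34.2% and 6.6% as TPM). Of 10 hepatocyte markers, 7 were lower in control than in ND-fed mice (6 as TPM) and 0 were higher, and their summed level was 43080, 41930 and 43700 FPKM in ND-fed and 28010, 32190 and 31630 FPKM in control mice. *Alb* took the largest part of it, and none of the 10 was at 0. Of 7 macrophage markers 5 passed the filter and were higher, among them *Gpnmb* and *Itgax*, which were below 1 FPKM in every ND-fed mouse and passed the filter through the high-fat groups, with sums of 95.2, 69.4 and 90.2 FPKM in ND-fed and 130, 114 and 150 FPKM in control mice, mostly from *Lyz2*. Of 9 stellate cell markers, 6 were higher and 0 were lower, with sums of 57.6, 52.0 and 65.8 FPKM in ND-fed and 133, 102 and 128 FPKM in control mice, led by *Dcn*. Among them, *Col1a1* averaged 0.98 FPKM under ND and passed the filter through the high-fat groups. The part of these cell types in the values of the members was not tested.

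Secretory cells rich in ER could also carry chaperone mRNA. Plasma cell markers summed to 157, 162 and 155 FPKM in ND-fed and 128, 134 and 161 FPKM in control mice, and their most abundant gene was *Sdc1*, which hepatocytes also express. Of the 4 plasma cell markers tested, 1 was higher and 2 were lower (1 and 0 as TPM). They included *Txndc5*, also counted among the other ER folding genes, at a mean of 53.9 FPKM in ND-fed and 42.9 FPKM in control mice. *Sdc1* averaged 77.3 and 62.3 FPKM in these groups. The immunoglobulin genes averaged 11.5 and 22.8 FPKM for *Ighm* and 12.5 and 10.7 FPKM for *Igkc*. Pancreatic acinar markers were near 0, with sums of at most 0.197 FPKM, and *Cpa1*, *Ctrb1*, *Pnlip* and *Amy2b* were listed at 0 in all 12 mice. In the remaining lists, control mice had 1 higher and 2 lower of 6 Kupffer cell markers (1 and 2 as TPM), 2 higher and 0 lower of 6 endothelial markers (5 and 0 as TPM), 2 higher and 0 lower of 3 tested cholangiocyte markers (2 and 0 as TPM), and no call for the 1 neutrophil marker tested, and none of 7 lymphocyte markers passed the filter. Of all tested genes 16.2% were higher and 19.1% lower (34.2% and 6.6% as TPM). *Epcam*, 1 of the 3 cholangiocyte markers, averaged 0.90 FPKM under ND and 0.86 FPKM under HYA, and passed the filter through the control and LA groups.

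Chaperone genes varied most among the control mice. The highest control mouse was 1.79-fold above the lowest at the median of the 13 chaperone genes, and 3.38-fold for *Manf*, beside 1.2-fold at the median of all tested genes. Control 3 was the highest control mouse for 13 of 13 chaperone genes and 21 of 22 genes of the ER side, beside 35.8% of all tested genes. LA 3 was the lowest LA-treated mouse for 13 of 13 chaperone genes (35.2% of all tested genes), and HYA 3 was the lowest HYA-treated mouse for 11 of 13 (33% of all tested genes). At the median of the chaperone genes, the spread was 1.43-fold in LA-treated mice and 1.26-fold in HYA-treated as in ND-fed mice. In the ATF4 branch, control 3 was highest for 6 of 7 tested genes.

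The same mice stood apart in the circadian clock genes *Dbp* and *Arntl*. Between the groups, *Clock* at −0.73 and *Nr1d1* at −0.55 were lower and 0 higher among 15 tested clock genes in control compared with ND-fed mice (0 and 0 as TPM). These counts were not above the shares of all tested genes, of which 19.1% were lower and 16.2% higher (6.6% and 34.2% as TPM). *Dbp*, an output gene of the clock, was at 14.97, 16.2 and 23.3 FPKM in the ND group, 50.02, 53.5 and 4.53 FPKM in the control group, 19.1, 45.5 and 57.0 FPKM in the HYA group, and 9.45, 20.0 and 41.4 FPKM in the LA group. The 5 mice above 40 FPKM were control 1, control 2, HYA 2, HYA 3 and LA 3. *Arntl*, which encodes the clock activator BMAL1 and cycles in antiphase to *Dbp*, was at 0.21, 0.174 and 3.23 FPKM in the control group, 1.80, 0.946 and 0.156 FPKM in the HYA group, 2.78, 2.06 and 0.316 FPKM in the LA group, and 1.98, 1.73 and 2.04 FPKM in the ND group. Those 5 mice held the 5 lowest values of both *Arntl* and *Hspa5*. Why they did so was not tested, and no time of tissue collection was analysed here.

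**Figure D5:**
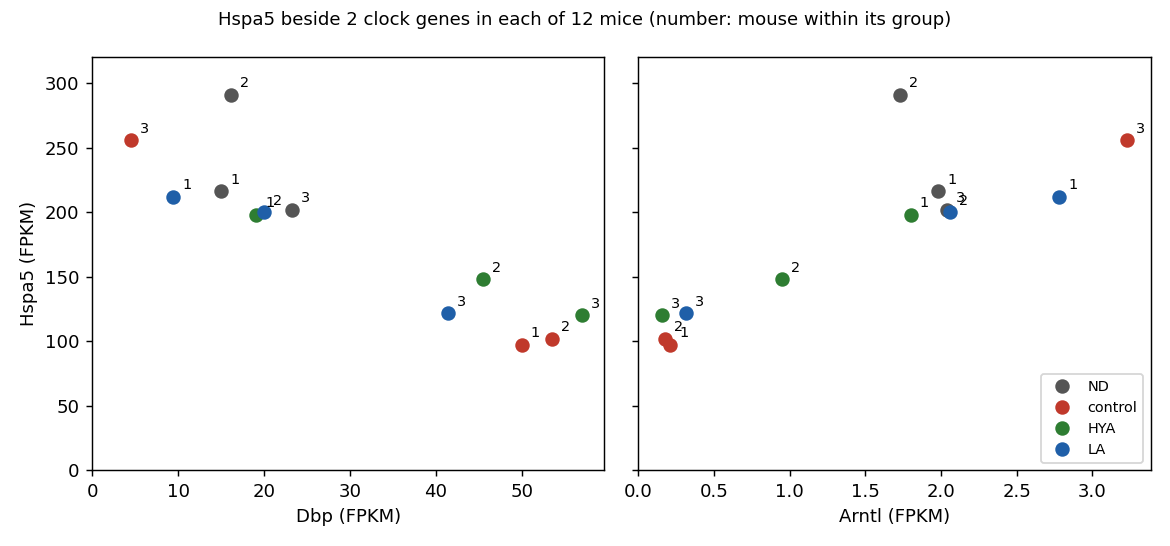
*Hspa5* against *Dbp* (left) and *Arntl* (right) in each of the 12 mice, all in FPKM, with the number of the mouse in its group. Control 1 and control 2 had 97.4 and 102 FPKM of *Hspa5* with 50.02 and 53.5 FPKM of *Dbp*, and control 3 had 256 FPKM of *Hspa5* with 4.53 FPKM of *Dbp*.

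The choice of mice changed the number of calls on the ER side. Without control 3, 17 members were lower and 1 was higher in the comparison of control with ND-fed mice (17.4% and 14.8% of tested genes), among them *Hspa5* at −1.22 (limma, Benjamini-Hochberg adjusted p = 0.00665). Control 3 was the highest control mouse for 21 of the 22 genes of the ER side, so leaving it out had to lower their control means. The lower calls of that fit are therefore only a description of the remaining mice. With the difference of log2(*Dbp* + 1) and log2(*Arntl* + 1) of each mouse as a covariate, an alternative added after the data were seen, 15 members were lower and 3 were higher (21.3% and 17.5% of tested genes). *Hspa5* was then at −0.49 (limma, Benjamini-Hochberg adjusted p = 0.00983). The covariate itself was called negative for 14 of the 22 genes of the ER side and positive for 0, beside 3.54% and 2.73% of tested genes, with slopes of −0.26 for *Hspa5*, −0.29 for *Hyou1* and −0.25 for *Syvn1*. *Ern1*, *Eif2ak3* and *Atf3* had no such call, and 2 of the 7 tested ATF4 branch genes, *Ddit3* and *Chac1*, had one. This covariate was chosen because these mice stood apart, so its calls are a description of these 12 mice. With it, 2 members were also called in HYA-treated compared with control mice, *Xbp1* higher at 0.42 (limma, Benjamini-Hochberg adjusted p = 0.0296) and *Atf3* lower at −0.55 (adjusted p = 0.0336). The share of all tested genes called in that comparison with the covariate is not given here, so these 2 calls are likewise only a description.

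No member was called between HYA-treated and control mice. By limma, 0 of the 29 tested members were higher or lower, beside 1.57% of tested genes higher and 1.23% lower, and 4 members reached an unadjusted p under 0.05, beside 18.5% of tested genes. Median log2 fold changes were 0.11 for the ER side (0.00 to 0.27 when 1 mouse was left out, and 0.00 as TPM) and 0.14 for the ATF4 branch (0.03 to 0.18, and 0.02 as TPM). *Atf3* came nearest, at 2.47, 1.74 and 2.05 FPKM in HYA-treated mice. All 3 values were below those of control mice and above those of ND-fed mice, and the log2 fold change against control of −0.61 ± 0.16 (95% confidence interval −0.96 to −0.25) did not pass the test (limma, Benjamini-Hochberg adjusted p = 0.0709). It passed as TPM at −0.84 (limma, Benjamini-Hochberg adjusted p = 0.041), a scale that moved the median of all genes from 0.02 to −0.09 and called 400 genes lower and 97 higher. It also passed with the replicate block (limma, Benjamini-Hochberg adjusted p = 0.0394), without control 2 (0.0314) and without LA 1 (0.0423), and the adjusted p was at most 0.236 under all alternatives.

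*Xbp1* was at 68.9, 57.8 and 53.7 FPKM in HYA-treated mice, which overlapped both control and ND-fed mice. Its log2 fold change against control was 0.36 (95% confidence interval 0.01 to 0.71) and did not pass (limma, Benjamini-Hochberg adjusted p = 0.255). *Atf4* was at 38.1, 40.6 and 33.2 FPKM with a log2 fold change of 0.14 (95% confidence interval −0.08 to 0.35). *Ddit3* was at 3.493, 2.64 and 3.33 FPKM, of which the highest was just under the lowest control mouse at 3.498 FPKM, with a log2 fold change of −0.33 (95% confidence interval −0.69 to 0.03). For *Hspa5* the interval was wide, from −0.63 to 0.93. None of the genes in the other pathway lists was called. The macrophage markers *Cd9*, *Itgax* and *Gpnmb* were lower under HYA than in control mice, and the summed level of their list was 115, 89.9 and 90.2 FPKM, while 2 of 9 stellate cell and 2 of 3 cholangiocyte markers were lower as well, beside 1.23% of all tested genes. *Itgax*, *Gpnmb* and the cholangiocyte marker *Epcam* averaged under 1 FPKM in HYA-treated mice and passed the filter through the control and LA groups.

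No gene was called between LA-treated and control mice. By limma, 0 of the 29 members and 0% of tested genes were higher or lower, and 1 member, *Ern1*, reached an unadjusted p under 0.05, beside 2.65% of tested genes. Medians were 0.10 for the ER side (0.01 to 0.26 when 1 mouse was left out) and 0.08 for the ATF4 branch (−0.04 to 0.20). *Xbp1* was at 58.0, 53.9 and 46.5 FPKM, *Atf4* at 39.8, 38.0 and 34.8 FPKM, and *Ddit3* at 5.45, 4.16 and 3.46 FPKM. *Atf3*, at 5.36, 3.38 and 3.37 FPKM, overlapped the control mice, and its log2 fold change was 0.08 (95% confidence interval −0.27 to 0.44). The interval for *Hspa5* was −0.45 to 1.12.

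The direct comparison of HYA- with LA-treated mice called 0 of the 29 members by limma, beside 0.235% of tested genes higher and 0.253% lower. *Atf3* and *Herpud1* reached an unadjusted p under 0.05, beside 17.2% of tested genes. *Atf3* was lower in all 3 HYA-treated than in all 3 LA-treated mice, by a log2 fold change of −0.69 (95% confidence interval −1.04 to −0.34; limma, Benjamini-Hochberg adjusted p = 0.072). It passed as TPM at −0.93 (limma, Benjamini-Hochberg adjusted p = 0.0474), where 134 genes were lower and 31 higher, with the replicate block (0.037) and without control 2 (0.044), and the adjusted p reached 0.261 without HYA 2. *Herpud1*, the member whose promoter holds both ERSE-II and the ATF4-type element, was at 110, 118 and 167 FPKM in HYA-treated and 82.7, 92.5 and 99.3 FPKM in LA-treated mice. Its groups did not overlap, with a log2 fold change of 0.50 (95% confidence interval 0.07 to 0.93) that did not pass (limma, Benjamini-Hochberg adjusted p = 0.221). For *Hspa5* the interval of the difference between both fatty acids was −0.97 to 0.60, and for *Creld2* −1.13 to 0.72.

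Against ND-fed mice, the supplemented groups differed in a few members. In HYA-treated mice, *Ern1* was lower and *Atf3* was higher, beside 7.85% of tested genes lower and 8.72% higher. The values of *Ern1* were 9.92, 9.33 and 9.24 FPKM, with a log2 fold change of −0.49 ± 0.07 (limma, Benjamini-Hochberg adjusted p = 0.0012), and *Atf3* was at 0.61 ± 0.16 (limma, Benjamini-Hochberg adjusted p = 0.0259). The call of *Atf3* was lost without any 1 of the 3 ND-fed mice, without HYA 1 or HYA 3, without a filter, with voom, and with the fold-change threshold. In LA-treated mice, *Calr*, *Xbp1*, *Ern1* and *Herpud1* were lower and *Eif2ak3*, *Atf3* and *Sesn2* were higher, beside 16.6% and 14.4% of tested genes. Only *Ern1*, *Eif2ak3* and *Atf3* were called whichever mouse was left out, and the other 4 were all lost without LA 1. As TPM *Calr*, *Xbp1* and *Herpud1* were not called, and without a filter *Calr*, *Xbp1*, *Herpud1* and *Sesn2* were not. The call of *Calr* was also lost with the replicate block. *Ern1* was at 9.70, 10.3 and 9.56 FPKM with a log2 fold change of −0.44 ± 0.07 (limma, Benjamini-Hochberg adjusted p = 0.00112), and *Atf3* was at 1.30 ± 0.16 (limma, Benjamini-Hochberg adjusted p = 0.000186). These comparisons share the ND-fed mice with that of control mice. Because the difference between 2 of them is the direct comparison given above, a call in 1 supplemented group and none in the other does not show that they differ.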

How the data were processed

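Values are FPKM as deposited by the authors, and the submitters' processing notes name fastp, HISAT2 2.0.5, featureCounts 1.5.0-p3 and build GRCm38, while the study's methods speak of TPM. Column totals differed between mice, and FPKM multiplied by gene length gave whole fragments for 100% of the values checked (tolerance 0.1). Values of 0 and those with the most fragments were outside that check. Samples were grouped by the diet label. The 11083 of 54532 genes that averaged 1 FPKM or more were fitted as log2(FPKM + 1) with limma 3.58.1 in R 4.3.3 (all 12 mice, empirical Bayes with trend, two-sided) and adjusted by Benjamini-Hochberg over all tested genes in each of 6 comparisons. Where a symbol had 2 identifiers, as *Ddit3* did, the more abundant was used, the other being at 0. Per-mouse values are given for *Hspa5*, *Xbp1*, *Atf4*, *Ddit3* and the 6 members with the lowest p-value in control compared with ND-fed mice on each side, and of each other list at most 4 genes with the lowest p-value are named. Outside this rule, per-mouse values of *Herpud1*, *Asns*, *Nupr1*, *Psat1*, *Fgf21*, *Cth*, *Dbp* and *Arntl* were added after the data were seen. Members and lists were chosen with earlier results of these data known. Alternatives were no filter, a filter of 5 FPKM, a pseudocount of 0.1, TPM, median-ratio size factors, limma voom on recovered fragments, a replicate block, only the 2 groups compared, a log2 fold change threshold of 1, and leaving out each mouse. A clock covariate and voom on genes with at least 10 fragments on average were added after the data were seen.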

Additional observations from a re-analysis of the deposited data

How the results depend on the processing

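Among the settings below, shares of all tested genes are given above only for some fits of control against ND. These are TPM, the fit without control 3, the fold-change threshold and the clock covariate. The other counts of members have no such share beside them, so they describe the members alone. The log2 median of the ER side in control compared with ND-fed mice was −0.64 to −0.32 over the 12 fits that left out 1 mouse, and that of the ATF4 branch −0.09 to 0.25. In the same fits 3 to 17 members were lower and 1 to 4 higher in control against ND, 0 to 1 lower in HYA-treated against control and in HYA- against LA-treated mice, 1 to 3 lower and 0 to 2 higher in HYA-treated against ND, and 1 to 7 lower in LA-treated against ND. Of control against ND, 17 lower members came without control 3, and 3, 5 and 4 without control 1, control 2 and ND 2. Against ND, the ATF4 branch median of HYA-treated mice was 0.01 to 0.40 and the ER side median of LA-treated mice −0.44 to −0.18. *Ddit3* was at −0.09 to 0.19 in control against ND, the negative value being that without control 3.

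Without a filter, 5 members were higher in control against ND, 0 higher and 2 lower in HYA-treated against ND, and 2 lower in LA-treated against ND, and the ATF4 branch median in HYA-treated against control mice was −0.07. With a filter of 5 FPKM, which left 21 members and only *Atf4* of the ATF4 branch, 0 were higher in each comparison with ND, 2 were lower in HYA-treated mice, and the ATF4 branch medians against ND were −0.39, −0.25 and −0.24 in control, HYA- and LA-treated mice. As TPM, the medians of the ER side and the ATF4 branch were −0.22 and 0.31 in control and −0.16 and 0.39 in LA-treated against ND-fed mice. As TPM, 1 member was lower in control against ND, in HYA-treated against control, in HYA- against LA-treated and in LA-treated against ND, and 3 were higher in HYA-treated against ND. With voom, 2 were lower in HYA-treated against ND. With only the 2 groups compared, 4 were lower in control against ND, and 2 higher and 3 lower in HYA-treated against ND. With the fold-change threshold, 1 was higher and 0 lower in control and in LA-treated against ND, and 0 in either direction in HYA-treated against ND. With the clock covariate, 15 were lower in control against ND, 1 higher and 1 lower in HYA-treated against control (*Xbp1* and *Atf3*), 3 higher and 3 lower in HYA-treated and 13 lower in LA-treated against ND, and the ATF4 branch median in HYA-treated against ND was 0.52. The cause was not tested where the setting does not itself remove genes or mice. Deviations of same-numbered mice correlated at −0.40 to 0.29 across genes. Mice with different numbers were not compared, so these values do not show whether the replicate numbers pair the mice. With a replicate block, 1 member (*Atf3*) was lower in HYA-treated against control and in HYA- against LA-treated mice, and 2 were higher in HYA-treated against ND.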
